A study of Mus musculus with 18 samples.

Results

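The genes described here are 10 markers of the contractile state of fibroblasts and of YAP signalling, taken by symbol from the 24062 genes in each count table. They comprise 6 contractile genes (Acta2, Tagln, Cnn1, Myl9, Tpm1 and Tpm2) and 4 YAP target genes (Ctgf, now named Ccn2, Cyr61, now named Ccn1, Ankrd1 and Amotl2). All 10 were listed under these symbols, and all 10 were among the 12140 genes with enough counts to be tested. RNA was sequenced from NIH3T3, a line of mouse embryonic fibroblasts, in 18 samples that form 6 groups of 3. The parental line (WT below) was compared with a derived line that carries mouse TRIM21 fused to the red fluorescent protein mCherry, NIH3T3-mCherry-mTRIM21 (TRIM21 below), each after electroporation of PBS, of 7.5 µg bovine serum albumin (BSA) or of 7.5 µg antibody (IgG). All groups received 2 pulses of 20 ms at 1400 V, and RNA was taken 16 h later. TRIM21 is a ubiquitin ligase that binds antibodies in the cytosol, and the study used it to degrade proteins bound by a delivered antibody. There was 1 derived line, so an effect of the fusion and any other difference between these lines cannot be told apart. The labels do not say that samples of a group came from separate cultures, so the p-values measure the spread between these samples, which may be technical.

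In fibroblasts, tension on the actin cytoskeleton is read out by a pair of transcriptional programmes. Polymerising actin releases the MRTF coactivators, which enter the nucleus and bind SRF on CArG boxes, and genes of the contractile apparatus are textbook targets. Spread, tense cells also keep YAP and TAZ in the nucleus, where they bind TEAD factors on their own target genes. A fibroblast with high smooth muscle actin is called a myofibroblast.

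The base sequences before the start of a gene show where such factors could bind, so they are given for some of the members. The promoter table from RefSeq (GRCm38.p6) matched 8 of the 10 members. Tagln and Ctgf had no entry and were not searched. For the others, the 250 bases before each RefSeq start were searched on both strands for the CArG box and for the TEAD core GGAATG, which reads CATTCC on the other strand. A CArG box was found in 1 of the 8 promoters, that of Myl9, and in 1.47% of all 32841 mouse promoters of this length. A CArG box with 1 inner letter other than A or T was found in Myl9 and at 2 places in Acta2, and in 7.24% of all promoters. The TEAD core was found in 5 of the 8, namely Acta2, Tpm1, Cyr61, Ankrd1 and Amotl2, and in 12.6% of all promoters. These matches describe letters and not bound sites. The RefSeq starts of that table can lie inside the longer GENCODE gene, and 217 of the 250 bases in Acta2, 193 in Tpm1, 250 in Ankrd1 and 136 in Amotl2 are GENCODE exon, which holds all the sites of these 4 genes. The first sequence below is Myl9, chr2:156775214-156775419 on the plus strand, shown because Myl9 differed between the lines, with the CArG box and then the variant box in capitals. The second is Cyr61, chr3:145649986-145650235 on the minus strand, with the TEAD core in capitals. The remaining lines are 30-base sites in Acta2 (chr19:34255438-34255467 and chr19:34255388-34255417, both minus strand, variant CArG boxes in capitals), Ankrd1 (chr19:36120037-36120066 and chr19:36119950-36119979, both minus strand) and Amotl2 (chr9:102717727-102717756, plus strand), the last 3 with the TEAD core in capitals.
Myl9: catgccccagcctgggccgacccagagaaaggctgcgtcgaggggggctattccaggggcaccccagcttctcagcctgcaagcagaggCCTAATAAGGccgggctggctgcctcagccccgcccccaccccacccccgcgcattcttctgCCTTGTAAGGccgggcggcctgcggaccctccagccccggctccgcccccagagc
Cyr61: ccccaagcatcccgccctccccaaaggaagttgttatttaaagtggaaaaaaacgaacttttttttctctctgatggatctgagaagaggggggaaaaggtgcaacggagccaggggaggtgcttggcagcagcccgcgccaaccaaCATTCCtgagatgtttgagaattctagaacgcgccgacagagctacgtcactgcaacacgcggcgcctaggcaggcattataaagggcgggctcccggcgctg
Acta2 site 1: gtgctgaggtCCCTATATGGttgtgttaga
Acta2 site 2: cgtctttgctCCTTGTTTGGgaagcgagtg
Ankrd1 site 1: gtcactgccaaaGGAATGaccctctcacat
Ankrd1 site 2: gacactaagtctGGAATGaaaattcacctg
Amotl2: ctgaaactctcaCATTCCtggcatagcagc

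The libraries held 19509017 to 29766433 reads assigned to genes, and values below are counts per 1e6 such reads after TMM scaling (CPM). Trim21 counts were 142 to 223 per WT library and 19900 to 32225 per TRIM21 library, as the labels require. Fibroblast markers were abundant in every library (10 genes, together 19604 to 38979 CPM). The skeletal muscle genes Myod1, Myf5, Myog and Ckm were at 0 in every library, as was Myocd, the coactivator that drives smooth muscle differentiation. The 6 smooth muscle markers together reached 49.8 to 84.8 CPM, and those of epithelium, endothelium, adipocytes and leukocytes at most 0.610, 2.60, 0.979 and 8.75 CPM. Of the 6 smooth muscle markers only 3 had enough counts to be tested. Des stayed under 10 counts in every library and Myh11 in every WT library. The library of the TRIM21 line after PBS that bears number 11 (each group has numbers 10, 11 and 14) stood apart. Its fibroblast markers summed to 19604 CPM against 29010 to 38979 in the other 17 libraries, and 8 of the 10, all but Vim and S100a4, were below every other library. In bulk RNA, fewer cells of a type and less RNA per cell cannot be told apart.

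The contractile genes spanned most of the expression range of these cells. Levels of different genes were compared per kilobase of annotated exon, as means over the 18 samples. The length covers the exons of all annotated transcripts of a gene, used in these cells or not. Acta2 (chromosome 19, 34241090 to 34255590), the smooth muscle actin that defines myofibroblasts, was highest at 675 ± 94.2 CPM per kb (SD, n = 18) and lay above 99.7% of the tested genes with a known length. Tagln (chromosome 9, 45929619 to 45936058), which encodes the actin-binding protein transgelin, followed at 226 ± 38.2 CPM per kb. The tropomyosins, which lie along actin filaments, were next and close together, with Tpm2 (chromosome 4, 43514711 to 43523765) at 126 ± 15.6 and Tpm1 (chromosome 9, 67022590 to 67049406) at 114 ± 8.57 CPM per kb. The ranges of mean ± SD of Tpm2 and Tpm1 overlapped, while Acta2 and Tagln stood clear of their neighbours. The place of Tpm1 depends on its exon length of 6.485 kb, against 2.909 kb for Tpm2 and 1.988 kb for Tagln. Without division by length, Tpm1 had a mean of 737 CPM, Tagln of 448 and Tpm2 of 368.

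Myl9 (chromosome 2, 156775420 to 156781658), the regulatory light chain of smooth muscle and non-muscle myosin II, had a mean of 39.0 CPM per kb. Cnn1 (chromosome 9, 22099216 to 22109630), calponin 1, a marker of differentiated smooth muscle, was lowest at 0.453 ± 0.0998 CPM per kb, with 15 to 47 counts per library. NIH3T3 cells here thus held abundant Acta2 and Tagln mRNA beside very little Cnn1 mRNA in all 6 groups.

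Among the YAP targets, the matricellular proteins Cyr61 (chromosome 3, 145646976 to 145649981) and Ctgf (chromosome 10, 24595442 to 24598683) were at 75.4 ± 17.3 and 28.3 ± 8.34 CPM per kb. Amotl2 (chromosome 9, 102716672 to 102733418), an angiomotin that holds YAP back in the cytoplasm, was at 35.3 ± 2.69 CPM per kb. Ankrd1 (chromosome 19, 36111961 to 36120099), an ankyrin repeat protein of the muscle sarcomere and nucleus, was lowest of the 4 at 12.9 ± 1.67 CPM per kb. The spread of Ctgf was wide enough to overlap that of Amotl2. All positions are on GRCm38 from the GENCODE annotation, and all 10 genes are protein coding.

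**Figure D1:**
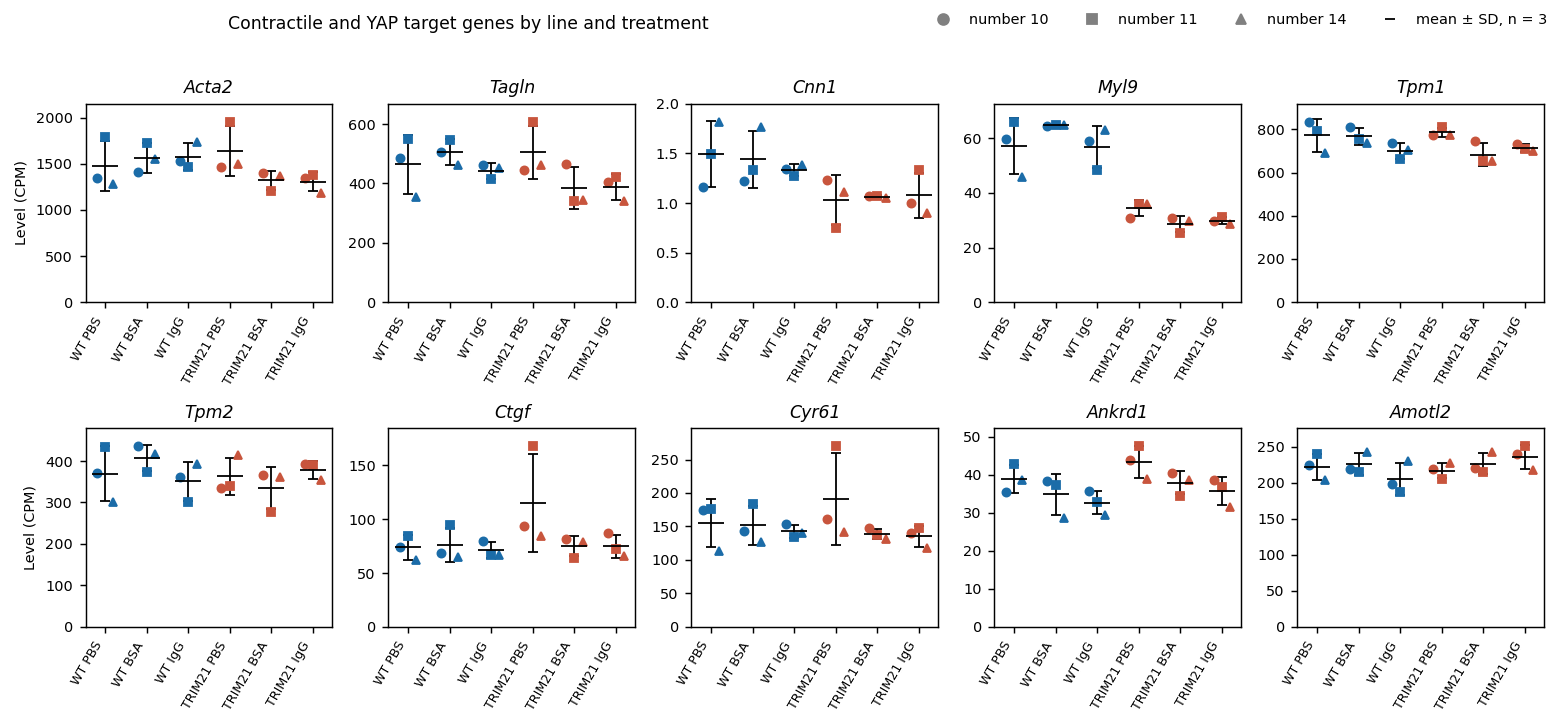
Level of each gene in CPM (vertical axis, from 0) in the 6 groups of line and treatment (horizontal axis), with points for the samples numbered 10, 11 and 14 and bars for mean ± SD (n = 3). Myl9 is lower in all 9 TRIM21 samples (25.4 to 36.1 CPM) than in all 9 WT samples (46.0 to 66.1 CPM), while the other genes overlap between the lines.

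The comparison of the lines asked which of these genes differ in cells that carry the TRIM21 fusion. Averaged over treatments, Myl9 fell to 0.518 of its WT level, and it alone of the 10 passed the threshold (adjusted p under 0.05 over all tested genes, Benjamini-Hochberg, with edgeR). Over all tested genes the share that passed was 6.18%, and 4.79% passed as lower. No YAP target passed in either direction, and 0 of the 4 had an unadjusted p under 0.05 (21.4% of all genes) or a call by DESeq2 or limma-voom. This depended on the fit. With the sample number as a block in edgeR, Ctgf and Ankrd1 had unadjusted p of 0.0452 and 0.0409, and adjusted p of 0.172 and 0.162. Averaged without the block, all 6 contractile genes had a negative log2 fold change and all 4 YAP targets a positive one. That of Cyr61 turned negative in 4 of the 18 fits that each left out 1 library. The split did not hold in each treatment. By group means, Acta2, Tagln and Tpm1 were higher in TRIM21 after PBS, as were Tpm1 and Tpm2 after IgG. Amotl2 was lower after PBS, Ctgf after BSA, and Cyr61 after BSA and IgG. The remaining means kept the averaged direction. The contractile genes had a median log2 fold change of -0.14 and the YAP targets of 0.096, beside 0.014 over all genes, of which 54.0% were positive.

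After PBS, Myl9 was at 59.7, 66.1 and 46.0 CPM in the WT samples numbered 10, 11 and 14, and at 31.0, 36.1 and 36.1 CPM in the TRIM21 samples. After BSA it was at 64.6, 64.8 and 64.8 CPM in WT and at 30.9, 25.4 and 29.6 CPM in TRIM21. After IgG the values were 59.2, 48.3 and 63.2 CPM in WT and 29.7, 31.1 and 28.6 CPM in TRIM21. Every TRIM21 sample lay below every WT sample, which was so, in 1 direction or the other, for 1.91% of all tested genes. The means were 30.9 ± 3.39 CPM in TRIM21 and 59.6 ± 7.48 CPM in WT (SD, n = 9 each).

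Averaged over treatments, the log2 fold change of Myl9 was -0.95 (SE 0.0735, 95% interval -1.103 to -0.793, edgeR quasi-likelihood, Benjamini-Hochberg adjusted p = 9.56e-08). Within the samples numbered 10, 11 and 14, the mean log2 differences were -0.998, -0.951 and -0.873. Myl9 ranked 25 of 12140 by p-value. Among the genes that passed, 148 others fell at least as much.

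Taken treatment by treatment, Myl9 passed in each comparison and no other member did. Of all tested genes 1.71% passed after PBS, 0.848% after BSA and 0.774% after IgG. The log2 fold change of Myl9 was -0.74 after PBS (SE 0.127, edgeR adjusted p = 0.00356), -1.18 after BSA (SE 0.128, adjusted p = 2.88e-05) and -0.93 after IgG (SE 0.128, adjusted p = 0.000428). Myl9 passed in all 18 fits that each left out 1 library, in all 4 of these comparisons. After PBS the call was lost when only the 6 PBS samples were fitted, where the log2 fold change was -0.73 with an adjusted p of 0.167.

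**Figure D2:**
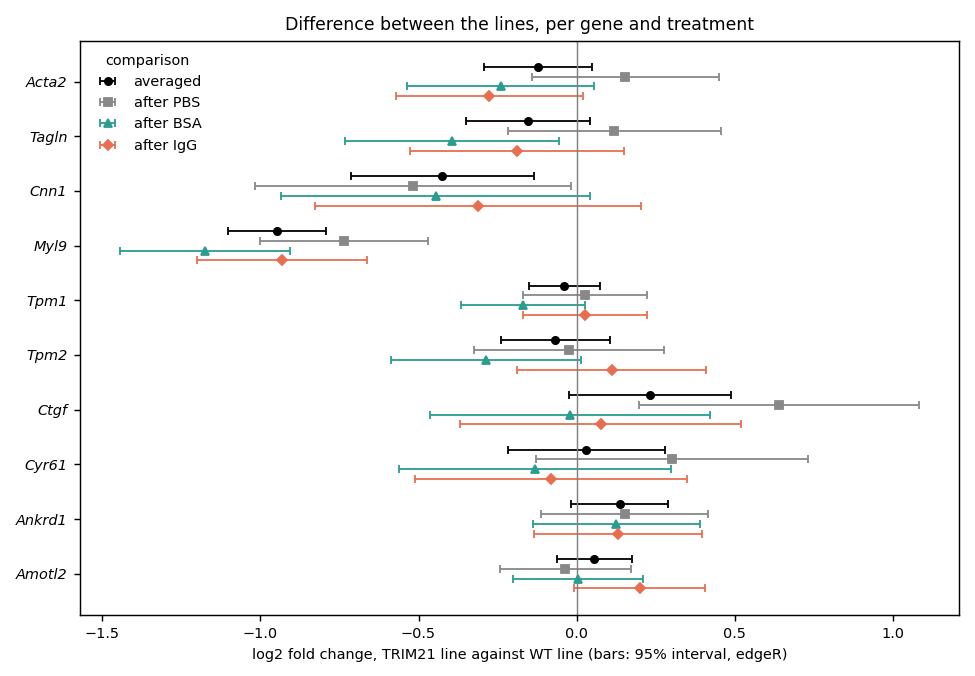
Log2 fold change of the TRIM21 line against the WT line (horizontal axis) for the 10 genes (vertical axis), averaged over treatments and after each treatment, with 95% intervals from edgeR. The intervals of Myl9 lie below 0 in all 4 comparisons, from -0.74 after PBS to -1.18 after BSA, and the averaged intervals of the other genes except Cnn1 include 0.

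Cnn1 had a log2 fold change of -0.43 (SE 0.138, 95% interval -0.71 to -0.14), with an unadjusted p of 0.00641 and an edgeR adjusted p of 0.0781. Its levels were 0.75 to 1.34 CPM in TRIM21 and 1.16 to 1.82 CPM in WT, and the ranges overlapped. Cnn1 passed in 1 of the 18 fits that left out a library, without the WT PBS sample numbered 10 (log2 fold change -0.48, adjusted p = 0.0452). With all libraries and the sample number as a block, Cnn1 had an edgeR adjusted p of 0.0535. At 15 to 47 counts per library it had the largest counting error of the 10.

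For the 4 most abundant contractile genes the differences between the lines, averaged over treatments, were small and their 95% intervals included 0. Single treatments differed more. With the sample number as a block in edgeR, the log2 fold change of Tagln was 0.13 after PBS and -0.39 after BSA (SE 0.136, adjusted p = 0.186 after BSA). That of Acta2 was 0.15 after PBS and -0.28 after IgG (SE 0.129, adjusted p = 0.457 after IgG). The values below are averages without the block. Acta2 ran from 1187 through a median of 1380 to 1959 CPM in TRIM21, and from 1288 through 1535 to 1787 CPM in WT. Its log2 fold change was -0.12 (95% interval -0.29 to 0.050, edgeR adjusted p = 0.409). The interval of Acta2 leaves room for a fall to 0.817 or a rise to 1.04 times the WT level. Tagln ran from 340 through 422 to 608 CPM in TRIM21 and from 356 through 462 to 552 CPM in WT, with a log2 fold change of -0.15 (interval -0.35 to 0.041). Tpm1 had a log2 fold change of -0.039 (interval -0.15 to 0.074) and Tpm2 of -0.067 (interval -0.24 to 0.11). On average over treatments, the tropomyosins were thus the contractile genes whose levels in both lines lay closest together.

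None of the 4 YAP targets passed between the lines. Ctgf ran from 64.2 through a median of 81.8 to 168 CPM in TRIM21 and from 62.1 through 69.0 to 94.2 CPM in WT. Its log2 fold change was 0.23 (SE 0.122, 95% interval -0.024 to 0.49, edgeR adjusted p = 0.280), and it was 0.10 without the TRIM21 PBS library numbered 11. Ankrd1 ran from 31.6 through 38.7 to 47.4 CPM in TRIM21 and from 28.6 through 35.6 to 42.8 CPM in WT, with a log2 fold change of 0.14 (interval -0.017 to 0.29, adjusted p = 0.290). Cyr61 and Amotl2 had log2 fold changes of 0.030 (interval -0.22 to 0.28) and 0.056 (interval -0.063 to 0.17). The sign of Cyr61 was not stable, since it was -0.088 without the TRIM21 PBS library numbered 11.

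Ctgf after PBS had the largest positive difference of the 10 between the lines. The TRIM21 samples numbered 10, 11 and 14 were at 93.5, 168 and 84.6 CPM and the WT samples at 74.6, 84.7 and 62.1 CPM. The library numbered 11 was high and the other TRIM21 samples lay close to the WT range. The log2 fold change was 0.64 (SE 0.211, edgeR adjusted p = 0.134) and 0.25 without that library. It passed in 1 of 18 fits, without the TRIM21 PBS library numbered 14, at a log2 fold change of 0.83 (adjusted p = 0.0329). With all libraries and the sample number as a block, Ctgf after PBS had an edgeR adjusted p of 0.0534.

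The comparison of IgG with PBS asked whether a delivered antibody changed these genes, in cells with and without the fusion. No member passed in any of the 6 treatment comparisons by the edgeR quasi-likelihood test, where 0% of all genes passed. At an unadjusted p under 0.05, 5 members were lower after IgG than after PBS in the TRIM21 line (Ctgf, Cyr61, Acta2, Tagln and Ankrd1), beside 5.61% of all genes in either direction. In the WT line 0 members were under that p in any of the 3 comparisons, beside 2.68% of all genes for IgG and PBS, 5.87% for IgG and BSA and 2.49% for BSA and PBS. DESeq2 and limma-voom also called 0 members in all 6 treatment comparisons. The count of 0 at an unadjusted p in the WT line depended on the fit. With the sample number as a block, Ankrd1 in WT had an edgeR unadjusted p of 0.0282 for IgG against PBS (log2 fold change -0.26). In the TRIM21 line the same fit gave Ankrd1 an unadjusted p of 0.0192 (log2 fold change -0.28).

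In the TRIM21 line, Ctgf was at 93.5, 168 and 84.6 CPM after PBS, at 81.8, 64.2 and 78.8 CPM after BSA and at 86.9, 72.1 and 65.9 CPM after IgG. The PBS and BSA ranges of Ctgf did not overlap, as for 5.49% of all genes in that comparison, and the PBS sample numbered 11 set the upper end. Relative to PBS, IgG gave Ctgf a log2 fold change of -0.62 (SE 0.211, edgeR adjusted p = 0.724, unadjusted p = 0.00896), and it was -0.23 without that library. Cyr61 was at 161, 270 and 142 CPM after PBS and at 140, 148 and 117 CPM after IgG. These ranges overlapped, and the log2 fold change was -0.50 with that library and -0.14 without it.

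Acta2 was at 1467, 1959 and 1499 CPM after PBS and at 1348, 1380 and 1187 CPM after IgG in the TRIM21 line. These ranges did not overlap, as for 8.95% of all genes. The log2 fold change was -0.33 (SE 0.141, edgeR adjusted p = 0.724), and -0.17 without the library numbered 11. Tagln gave -0.38 and Ankrd1 -0.28, and without that library -0.20 and -0.19. Each of these 5 genes had its highest value of all 18 samples in that same library, whose fibroblast markers were low as given above, and the part of those markers in the result was not tested.

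Against BSA, IgG gave log2 fold changes of -0.086 (Ankrd1) to 0.18 (Tpm2) in the TRIM21 line, with an edgeR adjusted p of 1.00 for every member, 0 members at an unadjusted p under 0.05 and 0.371% of all genes at that p. BSA against PBS gave 0 calls too. There 5 members, Ctgf, Cyr61, Tagln, Acta2 and Tpm1, had an unadjusted p under 0.05, beside 3.68% of all genes, and Ctgf had a log2 fold change of -0.62 that was -0.23 without the PBS library numbered 11. Both comparisons with PBS share the same PBS samples.

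In the WT line, IgG against PBS gave log2 fold changes of -0.26 (Ankrd1, SE 0.127, edgeR adjusted p = 1) to 0.099 (Acta2). Ankrd1 was at 35.4, 42.8 and 38.6 CPM after PBS and at 35.6, 32.7 and 29.5 CPM after IgG, and the ranges overlapped. Acta2 was at 1351, 1787 and 1288 CPM after PBS and at 1535, 1466 and 1740 CPM after IgG. Ctgf had a log2 fold change of -0.053 and a 95% interval of -0.50 to 0.39.

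The interaction of line and treatment was tested for the 3 treatment contrasts, and no member passed in any of them, where 0% of all genes passed. At an unadjusted p under 0.05 1.82% of all genes stood out for IgG with PBS as the reference, 3.97% for IgG with BSA as the reference and 6.51% for BSA with PBS as the reference, and 1, 0 and 3 of the 10 members were among them. DESeq2 and limma-voom called 0 members. Acta2 had an interaction of -0.43 for IgG against PBS (95% interval -0.85 to -0.011, edgeR adjusted p = 0.972), which was -0.27 without the TRIM21 PBS library numbered 11. Ctgf had -0.57 (interval -1.19 to 0.062), and -0.18 without that library. Myl9 had an interaction of -0.44 for BSA against PBS (interval -0.82 to -0.064, adjusted p = 0.651), with 34.4 ± 2.94 CPM after PBS and 28.6 ± 2.84 after BSA in TRIM21 and 57.3 ± 10.3 and 64.7 ± 0.158 in WT (SD, n = 3 each).

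**Figure D3:**
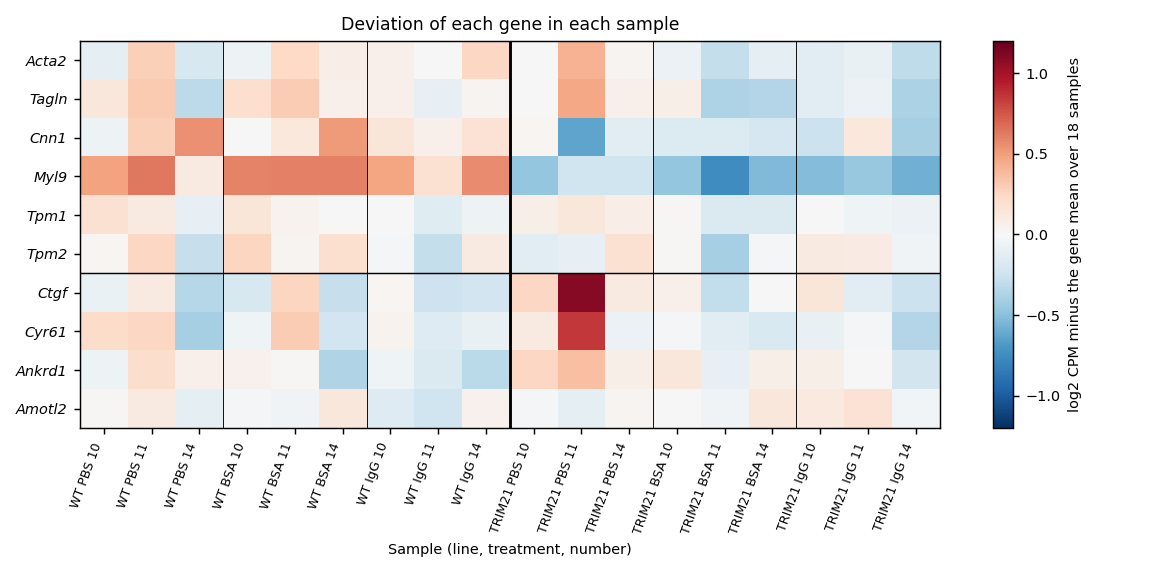
Colour gives log2 CPM minus the gene's mean over the 18 samples, for each gene (vertical axis) and sample (horizontal axis, by line, treatment and number). The Myl9 row is above its mean in all WT samples and below it in all TRIM21 samples, and the column of TRIM21 PBS number 11 holds the highest value of 5 genes, among them Ctgf (168 CPM) and Cyr61 (270 CPM).

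The sample numbers were compared as a possible batch, although the labels do not say what they stand for. Number 10 was set against the others because earlier results of these data had shown it to stand apart. The share of all genes that passed is therefore no independent check of a batch. Number 10 against the mean of 11 and 14 gave 0 calls among the members by edgeR, DESeq2 and limma-voom and 1 at an unadjusted p under 0.05, while 5.51% of all genes passed. Tpm1 came closest, with a log2 difference of 0.10 (SE 0.0482, edgeR adjusted p = 0.222). Numbers 11 and 14 were not compared with each other.

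Across samples, some of the 10 genes were correlated, both within a programme and between the programmes. Pearson and Spearman correlations of log2 CPM were taken over the 18 samples for the 36 pairs of genes without Myl9, and over the 9 samples of each line for all 45 pairs, with permutation p-values adjusted over each family. In the pooled samples 12 of 36 pairs had an adjusted p under 0.05 for Pearson's r, in the TRIM21 line 17 of 45 and in the WT line 4 of 45. Of the pooled pairs these were 6 of 16 within a programme and 6 of 20 between the programmes. The TRIM21 line contains the library numbered 11 after PBS, and whether the lines differ in this count was not tested. The permutations treated the samples as exchangeable, although samples of a group or number share variation. How often pairs of other genes correlate as strongly was not computed. These counts therefore do not show that the 10 genes correlate more than other genes.

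Ctgf and Cyr61, the pair of matricellular YAP targets, had r = 0.883 over all 18 samples (permutation test, adjusted p = 0.00036) and a Spearman coefficient of 0.779 (adjusted p = 0.00360). Without the 2 samples farthest from the median of Ctgf, r was 0.657. Within the numbers 10, 11 and 14, with 6 samples each, r was 0.010, 0.992 and 0.690, so the relation was not seen in number 10. In the WT line alone r was 0.906 (exact permutation test, n = 9, adjusted p = 0.0135) and the Spearman coefficient was 0.983 (adjusted p = 0.00223), which does not involve the outlying library.

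Acta2 and Tagln had r = 0.837 over all samples (permutation test, adjusted p = 0.00036) and a Spearman coefficient of 0.746 (adjusted p = 0.00405). Without the 2 samples farthest from the median r was 0.740, and within numbers 10, 11 and 14 it was 0.133, 0.989 and 0.866. Tagln and Tpm1 had r = 0.814 and a Spearman coefficient of 0.858 over all samples (permutation test, adjusted p = 0.00054 and 0.00036), 0.785 without the 2 farthest samples, and 0.704, 0.959 and 0.785 within the numbers. This pair held in all 3 numbers. Tagln also went with a gene of the other programme, Cyr61, at r = 0.810 and a Spearman coefficient of 0.814 (permutation test, adjusted p = 0.00036 and 0.0027), 0.818 without the 2 farthest samples, and 0.317, 0.870 and 0.703 within the numbers.

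Myl9 was examined within each line, because the lines form separate clusters for it. With Tagln it had r = 0.838 and a Spearman coefficient of 0.833 in the TRIM21 line (exact permutation test, n = 9, adjusted p = 0.0170 and 0.0338) and r = 0.878 and a Spearman coefficient of 0.750 in the WT line (exact permutation test, n = 9, adjusted p = 0.0215 and 0.143). Without the 2 samples farthest from the median of Tagln, r was 0.778 and 0.725. So, apart from the step between the lines, the samples of a line with more Tagln tended to have more Myl9.

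**Figure D4:**
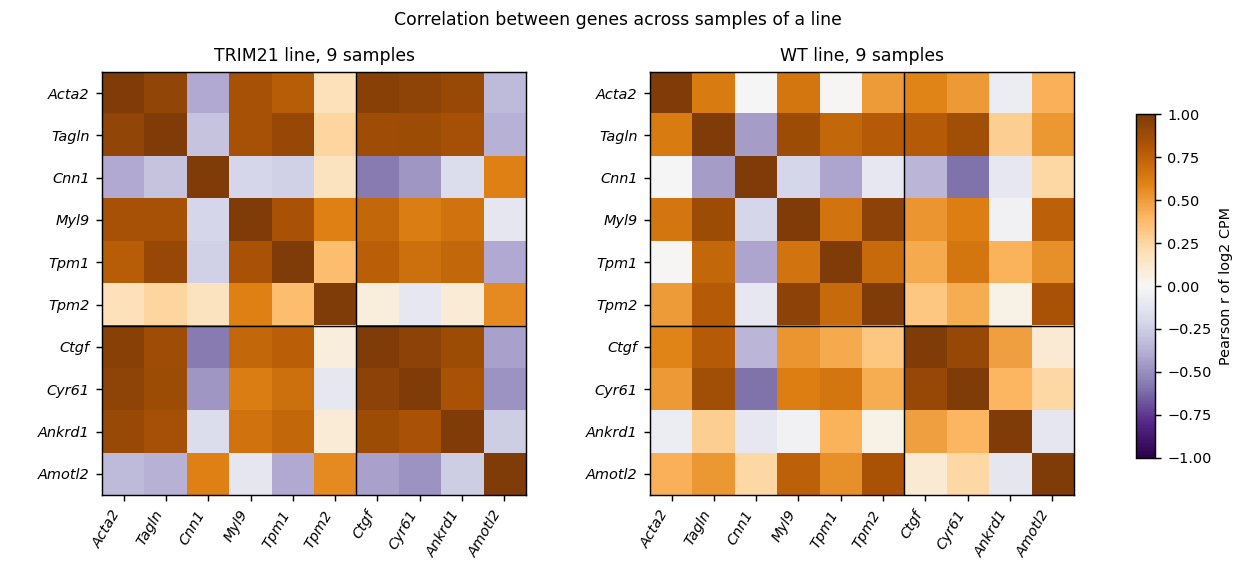
Pearson's r of log2 CPM between each pair of the 10 genes over the 9 samples of the TRIM21 line (left) and of the WT line (right), with the contractile genes first on both axes. Ctgf and Cyr61 are strongly correlated in both panels, at 0.943 in TRIM21 and 0.906 in WT, while Cnn1 and, in the TRIM21 line, Amotl2 go with few of the others.

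The genes most like Acta2 over the 18 samples, by Pearson's r of log2 CPM among the 12139 other tested genes, included Itga3 (0.866), Brinp1 (0.865), Elk3 (0.862) and Tagln (0.837). Those most like Ctgf included Sdpr (0.959), now named Cavin2, Prmt5 (0.953), Exosc2 (0.951) and Arl4c (0.942). Without the TRIM21 PBS library numbered 11 these 4 genes were at 0.815 to 0.884. These are descriptions over samples that share libraries and carry no p.

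Other genes of the same pathways were taken from lists. Of 30 further SRF/MRTF targets 29 were tested, and 4 fell and 1 rose in the TRIM21 line averaged over treatments, with a median log2 fold change of 0.026, where 6.18% of all genes passed and 4.79% passed as lower. Lmod1, leiomodin, an actin nucleator of smooth muscle, fell from 5.99 to 11.9 CPM in WT to 3.40 to 5.79 CPM in TRIM21, without overlap. Its log2 fold change was -0.97 (SE 0.143, edgeR adjusted p = 0.000244), close to that of Myl9. Actg2, the smooth muscle gamma actin, fell by 0.77 on the log2 scale (SE 0.151, adjusted p = 0.00382), from a median of 26.4 to 15.7 CPM, with ranges that overlapped.

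Csrp1, a LIM protein that binds alpha-actinin, fell by 0.28 on the log2 scale (SE 0.0526, edgeR adjusted p = 0.00255), from a median of 157 to 127 CPM. Itga1, a collagen-binding integrin, rose by 1.27 (SE 0.267, adjusted p = 0.00649) at under 2 CPM. The remaining call was Fhl2, a LIM-domain coactivator, at -0.26 (adjusted p = 0.0462), named after its value was seen, and it passed in 4 of the 18 fits that left out a library. Lmod1, Actg2, Csrp1 and Itga1 passed in all 18. The remaining 24 tested genes of the list did not pass.

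Of 22 Hippo pathway components all were tested and 0 passed, with a median of 0.043. By unadjusted p under 0.05 there were 4 of these 22, beside 21.4% of all genes, and DESeq2 called 1 and limma-voom 0.

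The Hippo components with most counts had close values in both lines. Tead1, a TEAD factor, was at 210 ± 20.5 CPM in TRIM21 and 216 ± 27.4 in WT, and Wwtr1, which encodes TAZ, at 172 ± 4.76 and 177 ± 12.5 (SD, n = 9 each). Yap1 itself, picked out after its value was seen, was at 157 ± 9.31 and 158 ± 8.62 CPM. Of 16 TGF-beta pathway genes 16 were tested, 2 fell and 0 rose, with a median of -0.017, beside the same 4.79% of all genes that passed as lower. The ligand Tgfb3 fell by 0.32 on the log2 scale (SE 0.0668, adjusted p = 0.00647) and passed in all 18 fits, and the receptor Tgfbr1 fell by 0.23 (adjusted p = 0.0482) and passed in 6. Of the 10 fibroblast markers 1 passed as lower (Thy1, a surface glycoprotein, at -0.29, adjusted p = 0.0207) and 0 as higher, where 6.18% of all genes passed, and the median of the 10 was -0.26. By edgeR unadjusted p under 0.05 there were 6 of the 10, beside 21.4% of all genes, and DESeq2 called 2 and limma-voom 1. The part of these markers in the Myl9 result was not tested.

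**Figure D5:**
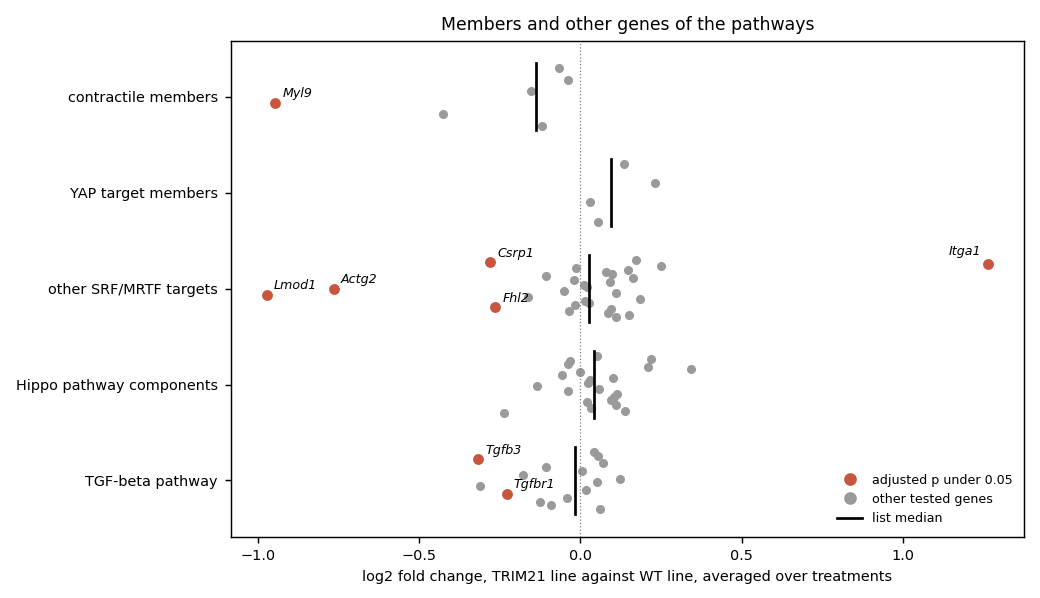
Log2 fold change of the TRIM21 line against the WT line averaged over treatments (horizontal axis) for each tested gene of 5 lists (vertical axis), with genes past the adjusted p threshold in colour and named, and a bar at each list's median. Myl9, Lmod1 and Actg2 lie far to the left at -0.95, -0.97 and -0.77, while the medians of these 5 lists lie between -0.14 and 0.096.

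Other myosin genes, looked up after the Myl9 value was seen, did not show the step between the lines. Myl12a and Myl12b, the other regulatory light chains of non-muscle myosin, had log2 fold changes of -0.036 and -0.16 (edgeR adjusted p = 0.810 and 0.329). Myl6, the essential light chain, had -0.16 (edgeR adjusted p = 0.252). The heavy chain Myh9 had 0.25, opposite in direction to Myl9, with a 95% interval of 0.017 to 0.48 (edgeR adjusted p = 0.200). Myl9, Myl12a and Myl12b have similar coding sequences, as do Acta2 and Actg2, and how reads shared between such copies were counted is not given in the sources used here. The 10 tested genes nearest to Myl9 on chromosome 2, 5 on each side within 400 kb and also looked up afterwards, held 0 calls, with log2 fold changes of -0.29 to 0.17.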

How the data were processed

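RNA from 18 samples in 6 groups of 3 was sequenced as strand-specific, polyA-enriched libraries, per the labels' protocols. The authors deposited raw read counts per gene symbol, 1 table per sample. The submitters' processing notes name STAR 2.5.1b, HTSeq 0.6.0 and the mm10 build. Library totals of 19509017 to 29766433 gene reads exclude the reads outside genes (13.1% to 18.8%). The depth leaves Cnn1, with 15 to 47 counts, the least precise.

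The deposited counts went into edgeR 4.0.16 (R 4.3.3) with these settings: filterByExpr (minimum count 10, minimum total 15), TMM factors, 1 mean per group over all samples, glmQLFit and glmQLFTest, and Benjamini-Hochberg adjustment over 12140 genes at a threshold of 0.05. Log2 CPM for correlations used a prior count of 2. The code was tested on simulated data. In each group the samples differed by more than sampling noise. Positions came from GENCODE for GRCm38, matched by symbol (22758 directly, 916 by an older symbol, 388 not), and promoters from RefSeq.

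The alternatives were other size factors, 2 other filters, DESeq2 1.42.0, limma-voom (limma 3.58.1), a fit on only the groups compared, the number as a block, and the omission of each library in turn. The members, lists, naming rule and the comparison of number 10 with the other numbers were chosen with earlier results of these data known. The rule names all 10 members, up to 4 called genes with the largest change per list (with none called, the 2 with most counts), and the 5 genes most like Acta2 and Ctgf. Some genes that the rule names, and 2 of the lists, are not reported here.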

Additional observations from a re-analysis of the deposited data

Results flagged for a closer look

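Among the 9 samples of the TRIM21 line, the PBS sample numbered 11 lay far above the others for 3 of the 10 genes. Acta2 was at 1959 CPM, Ctgf at 168 CPM and Cyr61 at 270 CPM. On the log2 CPM scale, the gap to the next sample was 0.534, 0.608 and 0.618 of the range, where Dixon's 95% critical value for 9 samples is 0.493. There were 20 sets of a gene and a line examined, and chance flags about 1 in 20 sets. The 3 values come from 1 library, whose fibroblast markers summed to 19604 CPM, and the part of those markers was not tested.

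For 6 of 30 sets of a gene and a treatment difference, all 3 samples of a treatment lay on 1 side of the mean of the reference treatment in the TRIM21 line and on the other side in the WT line. How often other genes do so was not counted, so this number has no background beside it. The sets share samples between treatment differences and are not independent. The mean difference, TRIM21 minus WT on the log2 scale, was -0.43 for Acta2 and IgG relative to PBS. It was -0.54 for Tagln and -0.46 for Myl9, both for BSA relative to PBS. For IgG relative to BSA it was 0.26 for Myl9, 0.20 for Tpm1 and 0.41 for Tpm2. The interaction itself passed for none of these by the edgeR quasi-likelihood test, with adjusted p-values of 0.972 (IgG against PBS), 0.651 (BSA against PBS) and 0.843 (IgG against BSA). Without the TRIM21 PBS library numbered 11 the fitted interaction was -0.27 for Acta2 (IgG against PBS) and -0.35 for Tagln (BSA against PBS).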

How the results depend on the processing

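The call of Myl9 between the lines, averaged over treatments, held in every alternative run, and the log2 fold change lay between -0.996 and -0.909 in the fits that left out 1 library. The number of the 10 genes called was 1 to 2 in those fits, both averaged and after PBS, against 1 with all libraries. After PBS it was 0 when only the groups compared were fitted. The other comparisons kept their member counts under all alternatives. Cyr61 averaged over treatments had the opposite sign without the TRIM21 PBS library numbered 11 (-0.088), the TRIM21 IgG library numbered 11 (-0.0015), the WT PBS library numbered 14 (-0.032) and the WT BSA library numbered 14 (-0.012), and its range over all omissions was -0.088 to 0.088. The cause was not tested. Of 843 recomputed values, 783 kept direction and side of the threshold, and 52, all of single genes of the pathway and marker lists, missed the threshold with the same sign. Fhl2 and Tgfbr1 lost it with DESeq2 size factors too (adjusted p = 0.0551 and 0.0559).

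With the replicate block the number of members called was 1, as without it, in each comparison of the lines and 0 in all others. Same-numbered samples of different groups correlated at a mean of 0.218 over 45 pairs (-0.32 to 0.578, 32 above 0.1), against -0.11 for different numbers, and 16 of 18 samples correlated best with their own number. Not every pair passed 0.1 and the labels give the number no meaning, so the samples share only a number. The block moved the count over all genes from 750 to 1462 averaged over treatments, from 208 to 847 after PBS, from 103 to 187 after BSA and from 94 to 173 after IgG. With DESeq2 the counts after PBS, BSA and IgG were 451, 164 and 166. The filter of 10 counts in every sample gave 132, 53 and 57, and only the groups compared gave 44 after PBS and 179 after IgG. Leaving out 1 library gave 517 to 1268 averaged over treatments, 104 to 1018 after PBS, 66 to 138 after BSA, 69 to 148 after IgG and 202 to 941 for number 10 against the others (669 with all). The lowest count in any library was 569 for 9 of the 10 genes, and counting error is largest for Cnn1.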
